A study of Mus musculus with 2 samples.

Results

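The genes described here are the 6 mouse genes of 2 microRNA (miRNA) families that lie in introns of phosphatase and kinase genes: Mir26b, Mir26a-1 and Mir26a-2 in the Ctdsp genes, and Mir107, Mir103-1 and Mir103-2 in the Pank genes. They were chosen by name, and each was found as 1 row of the 1973 miRNA gene rows in both count tables. MicroRNA-seq, which sequences RNA of the length of mature miRNAs, was made from forebrain of healthy B6NCrl mouse embryos at embryonic day 11.5. Replicate 1 is a pool of 109 embryos and replicate 2 a pool of 88, each with males and females, and the labels give both the same donor entry. The 2 libraries form 1 group, with no treatment, mutation or control group, so the comparisons are between genes and between libraries. Both pools hold whole forebrain, so fewer cells of a type and less RNA per cell cannot be told apart.

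A miRNA gene is transcribed as a hairpin, from which a mature strand is cut out of the 5′ arm (5p) or the 3′ arm (3p) and loaded into Argonaute to repress messenger RNAs. Pairing to a target rests mainly on the seed near the 5′ end of the mature strand. The Ctdsp genes encode small phosphatases that act on the C-terminal domain of RNA polymerase II and work with REST, a repressor of neuronal genes in cells that are not neurons. In zebrafish, miR-26b has been reported to repress its own host transcript during neuronal differentiation. The Pank genes encode pantothenate kinases, which catalyse the first step of coenzyme A synthesis, and miR-103 and miR-107 are known to target the miRNA-processing enzyme Dicer.

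The mature sequences show which genes a short read can tell apart, and are given 5′ to 3′ from RefSeq (GRCm38.p6) with the seed, bases 2 to 8, in capitals. The strands by which each family is named come first.
miR-26b-5p: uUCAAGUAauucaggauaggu
miR-26a-5p, from Mir26a-1 and Mir26a-2: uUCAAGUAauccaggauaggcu
miR-107-3p: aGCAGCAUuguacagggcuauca
miR-103-3p, from Mir103-1 and Mir103-2: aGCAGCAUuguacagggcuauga
The strands of the opposite arms follow.
miR-26b-3p: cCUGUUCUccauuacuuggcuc
miR-26a-1-3p: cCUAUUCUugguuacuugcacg
miR-26a-2-3p: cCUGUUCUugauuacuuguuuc
miR-107-5p: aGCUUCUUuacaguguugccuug
miR-103-1-5p: gGCUUCUUuacagugcugccuug
miR-103-2-5p: aGCUUCUUuacagugcugccuug

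Mir26a-1 and Mir26a-2 encode the same miR-26a-5p, and Mir103-1 and Mir103-2 encode the same miR-103-3p. Mir26b and Mir107 have no identical mature copy in another miRNA hairpin and are called unique here, and the other 4 genes are called copies. Counted from 1 at the 5′ end, with the base of the copied strand first, miR-26b-5p differs from miR-26a-5p by C11U and C21U, and miR-107-3p differs from miR-103-3p by G22C alone. None of these positions lies in the seed, so each unique strand has the seed of its copied relative. On the other arm, miR-103-2-5p differs from miR-103-1-5p by G1A, and miR-107-5p from miR-103-2-5p by C16U. The 3p strands of Mir26a-1 and Mir26a-2 differ at 6 positions, among them A4G within the seed.

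The hairpins are printed with the longest stretch shared with the nearest of the other 5 hairpins in capitals (RefSeq, GRCm38.p6, strand of the gene).
Mir26b, chr1:74394310-74394394, plus strand: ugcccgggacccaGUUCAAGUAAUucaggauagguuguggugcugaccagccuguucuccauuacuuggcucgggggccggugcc
Mir26a-1, chr9:119031796-119031885, plus strand: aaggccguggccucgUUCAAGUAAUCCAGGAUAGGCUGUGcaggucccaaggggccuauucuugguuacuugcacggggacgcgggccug
Mir26a-2, chr10:126995530-126995613, plus strand: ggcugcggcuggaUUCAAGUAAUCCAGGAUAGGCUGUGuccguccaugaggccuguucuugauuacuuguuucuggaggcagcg
Mir107, chr19:34820687-34820773, minus strand: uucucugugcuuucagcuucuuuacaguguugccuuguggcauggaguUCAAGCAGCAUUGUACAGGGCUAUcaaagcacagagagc
Mir103-1, chr11:35782396-35782481, plus strand: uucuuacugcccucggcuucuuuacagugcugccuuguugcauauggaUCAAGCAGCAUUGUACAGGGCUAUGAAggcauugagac
Mir103-2, chr2:131288052-131288137, plus strand: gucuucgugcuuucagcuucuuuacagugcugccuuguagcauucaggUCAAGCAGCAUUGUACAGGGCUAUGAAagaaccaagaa

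The longest stretch that Mir26b shared with another of the hairpins was 11 bases, with Mir26a-1. Mir26a-1 and Mir26a-2 shared 25 bases, which start with the first base of miR-26a-5p and run 3 bases past its end. Mir107 shared 24 bases with Mir103-2, a stretch that ends before the base of G22C, whereas Mir103-1 and Mir103-2 shared 27 bases that cover all of miR-103-3p with 3 bases before it and 1 after it. Of all windows of 22 bases in a hairpin, 64 of 64 in Mir26b and 61 of 66 in Mir107 occurred in no other miRNA hairpin, against 65 of 69 in Mir26a-1, 59 of 63 in Mir26a-2, 57 of 65 in Mir103-1 and 55 of 65 in Mir103-2. The shared windows of the copies include those over the named mature strand, so the hairpin as a whole is mostly distinct and the mature strand is not.

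**Figure D1:**
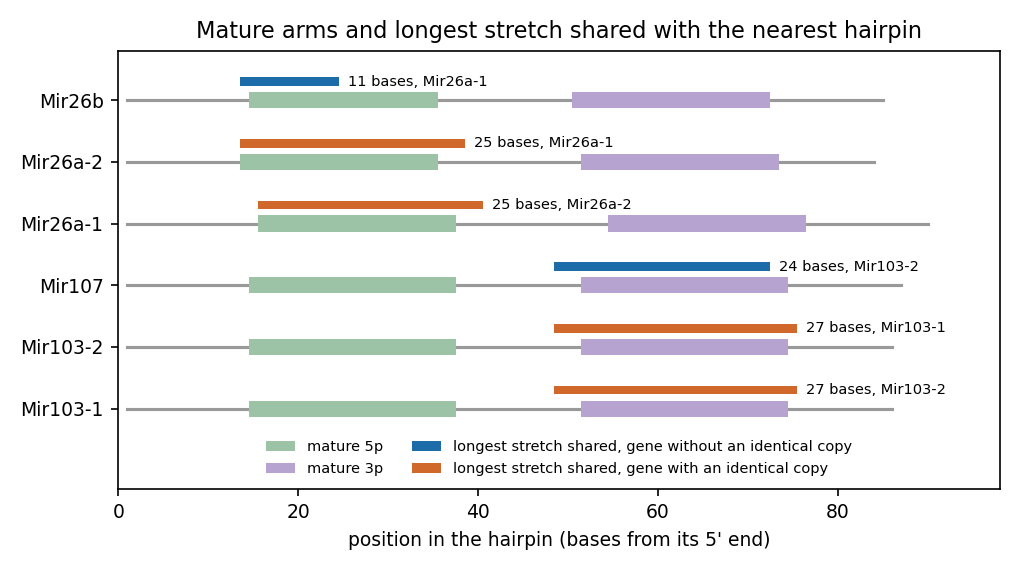
Position along the hairpin (x axis, bases from its 5′ end) of the mature 5p strand (green), the mature 3p strand (purple) and the longest stretch shared with the nearest of the other 5 hairpins (blue for the unique genes, orange for the copies), 1 gene a line. The orange stretches of 25 and 27 bases span a whole mature strand, and the blue ones of 11 and 24 bases do not.

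All 6 hairpins lie in an intron of a protein-coding gene and on its strand (GENCODE M21, GRCm38). Mir26b (ENSMUSG00000065468.1) lies in intron 4 of 6 of Ctdsp1, which is 564 bases long. Mir26a-2 (ENSMUSG00000065430.1) lies in intron 5 of 7 of Ctdsp2, 1946 bases long, and Mir26a-1 (ENSMUSG00000065513.1) in intron 5 of 7 of Ctdspl, 3283 bases long. The 3 Pank hosts each carry their hairpin in intron 5 of 6. That intron is 7282 bases long in Pank1, the host of Mir107 (ENSMUSG00000065594.1), 5801 bases in Pank2, the host of Mir103-2 (ENSMUSG00000065563.1), and 1740 bases in Pank3, the host of Mir103-1 (ENSMUSG00000065553.1). Ctdsp2 also holds the row of Mir546, and the other 5 hosts hold no second miRNA row. The host messenger RNAs were not measured in these libraries.

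Both unique genes were far above both copies of their family, and all 6 genes were detected in both libraries on the sense strand with 0 counts on the opposite strand. Replicate 1 held 1281201 sense counts over all miRNA genes and replicate 2 held 1297647, and levels are given in CPM, the usual scaling of a count by this total. A gene count sums reads of both arms of a hairpin that were placed at 1 gene. A read of the named mature strand of a copy, with no base beyond the shared stretch, fits both copies of its family. Such reads map to several places and are not in the gene counts. The counts of the copies thus do not cover that strand in full. A read of miR-107-3p that ends before the base of G22C also fits both Mir103 genes, so the count of Mir107 leaves out any such reads. No scaling by length was made because a read spans the whole mature strand. Intervals are exact 95% intervals within 1 library and cover counting error only, not the spread between libraries. Reads copied by PCR are not independent molecules, so the intervals can be too narrow even for counting error.

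Mir26b had 21048 counts or 16428 CPM in replicate 1 (interval 16207 to 16652) and 21882 counts or 16863 CPM in replicate 2 (16640 to 17088). Its mean of 16646 ± 307 CPM (SD, n = 2, as for every ± here) placed it 14th of all miRNA genes, with 1.66% of all counts. It was the highest of the 6 genes in both libraries.

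Mir26a-2 had 68 counts or 53.1 CPM in replicate 1 (41.2 to 67.3) and 66 counts or 50.9 CPM in replicate 2 (39.3 to 64.7), with a mean of 52.0 ± 1.57 CPM at rank 256. Mir26a-1 had 20 counts or 15.6 CPM in replicate 1 (9.54 to 24.1) and 18 counts or 13.9 CPM in replicate 2 (8.22 to 21.9), with a mean of 14.7 ± 1.23 CPM at rank 316. The 2 copies of miR-26a thus rest on 18 to 68 counts, and their intervals are wide beside that of Mir26b.

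Mir107 had 3683 counts or 2875 CPM in replicate 1 (2783 to 2969) and 3589 counts or 2766 CPM in replicate 2 (2676 to 2858). Its mean of 2820.2 ± 77.0 CPM stood at rank 67, with 0.282% of all counts. It was second among the 6 genes in each library.

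Mir103-2 had 190 counts or 148 CPM in replicate 1 (128 to 171) and 215 counts or 166 CPM in replicate 2 (144 to 189), with a mean of 157 ± 12.3 CPM at rank 203. Mir103-1 had 16 counts or 12.5 CPM in replicate 1 (7.14 to 20.3) and 14 counts or 10.8 CPM in replicate 2 (5.90 to 18.1), with a mean of 11.6 ± 1.20 CPM at rank 325. Mir103-2 was the highest of the 4 copies and Mir103-1 the lowest, so the copies of the other family lay between them.

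**Figure D2:**
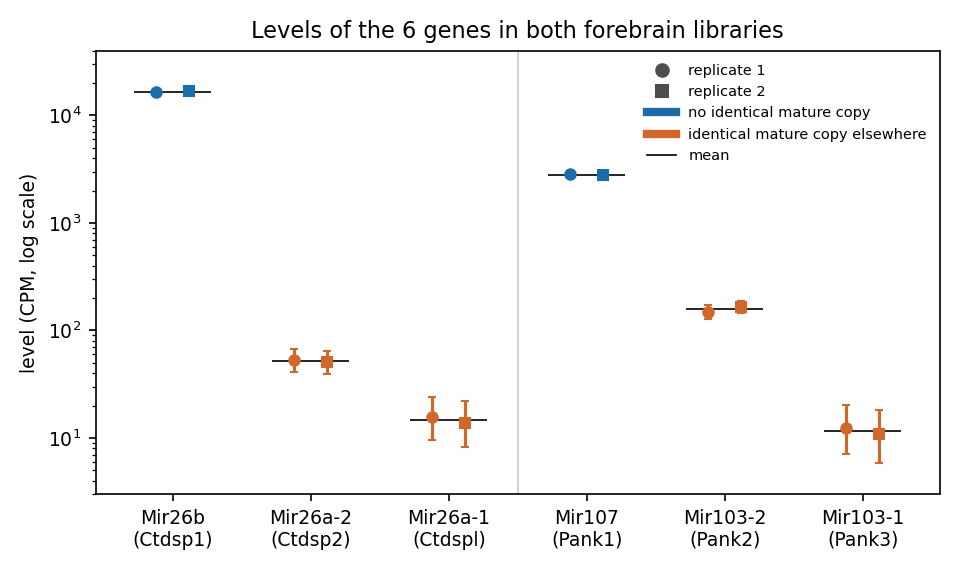
Level of each gene in CPM (y axis, log scale) in replicate 1 (circles) and replicate 2 (squares), with exact 95% counting intervals as bars, the mean as a black line and the host gene in brackets. Mir26b at 16646 CPM and Mir107 at 2820.2 CPM (blue, unique) stand above the 4 copies (orange), whose means run from 11.6 to 157 CPM.

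From high to low the order was Mir26b, Mir107, Mir103-2, Mir26a-2, Mir26a-1 and Mir103-1 in both libraries. Mir26b exceeded Mir107 by 2.56 ± 0.07 on the log2 scale, Mir107 exceeded Mir103-2 by 4.17 ± 0.15, Mir103-2 exceeded Mir26a-2 by 1.59 ± 0.16 and Mir26a-2 exceeded Mir26a-1 by 1.79 ± 0.07. Each of these differences was larger than the spread between the libraries, and its counting interval stayed above 0 in each library. The last step did not: Mir26a-1 was above Mir103-1 by 0.33 ± 0.03, with intervals from -0.70 to 1.37 in replicate 1 and from -0.73 to 1.48 in replicate 2, so the 2 lowest genes could not be separated at this depth. With 2 libraries the smallest two-sided p that an exact sign test can give is 0.5, and no test of these ratios was made.

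Within the miR-26 family, the log2 ratio of Mir26b over the sum of Mir26a-1 and Mir26a-2 was 7.89 in replicate 1 (7.60 to 8.22) and 8.02 in replicate 2 (7.72 to 8.35). The mean of 7.96 ± 0.09 is a 248-fold difference, and 99.6% ± 0.0240 of the counts of the 3 genes were on Mir26b. Within the family of miR-103 and miR-107, the log2 ratio of Mir107 over the sum of Mir103-1 and Mir103-2 was 4.16 in replicate 1 (3.96 to 4.37) and 3.97 in replicate 2 (3.78 to 4.17). The mean of 4.06 ± 0.13 is a 16.7-fold difference, with 94.4% ± 0.496 of the family's counts on Mir107. The direction was therefore the same in both families, and the intervals of the 2 families did not overlap. The counts of the copies leave out reads that fit both of them. That of Mir107 leaves out any reads of miR-107-3p that end before the base of G22C. These ratios therefore compare gene counts and not mature strands.

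Taking both families, the unique genes summed to 19466 ± 230 CPM and the 4 copies to 235 ± 8.30 CPM, a log2 ratio of 6.37 ± 0.03 or 82.6-fold. This ratio rests on placing Mir107 with the unique genes, although its mature strand is 1 base from miR-103-3p: with Mir107 among the copies it was 2.45. The copies also differed from each other, with Mir103-2 over Mir103-1 at 3.71 ± 0.26 and Mir26a-2 over Mir26a-1 at 1.79 ± 0.07 on the log2 scale.

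Reads that map to several places are not in the gene counts and stand in a separate row of the tables. That row held 1165381 reads in replicate 1 and 1001079 in replicate 2, or 0.91 and 0.771 reads per sense count. The Mir26a copies together had 20960 counts fewer than Mir26b in replicate 1 and 21798 fewer in replicate 2. In size these are 1.80% and 2.18% of the multimapping reads. The Mir103 copies together had 3477 counts fewer than Mir107 in replicate 1 and 3360 fewer in replicate 2, or 0.298% and 0.336% in size. The multimapping row is 1 total for the whole library, and the genes its reads belong to are not given. Nor is it known that copies and unique gene should have equal counts. The part of this counting in the difference between unique genes and copies was not tested, and the levels of all 6 genes cover only reads placed at 1 gene. None of the mature strands of the 6 genes matched a transcript of a gene other than a miRNA gene in GENCODE M21, on either strand, among 141767 transcripts.

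Between the libraries the log2 ratios of the 6 genes lay from -0.16 to 0.20, with wide intervals for the genes with few counts. None of the 6 differed 2-fold with an adjusted p under 0.05, against 2.76% of the 398 genes tested, and 1 of the 6 had an adjusted p under 0.05, against 28.4% of them (two-sided exact binomial test, Benjamini-Hochberg adjustment). Such counts among 6 genes do not set them apart from all genes tested. This test compares 2 libraries, not conditions, and covers counting error alone, so its p says nothing of spread beyond these 2 pools. Mir26b had a log2 ratio of replicate 1 over replicate 2 of -0.04 (-0.07 to -0.01), with an adjusted p of 0.0258 in the exact binomial test. With TMM library sizes this ratio was -0.11, and edgeR's exact test, which takes in a dispersion between the libraries, gave -0.10 with an adjusted p of 1.0. That dispersion was estimated from the same 2 libraries, so this adjusted p says little about whether they differ. Over the alternatives the adjusted p ran from 6.2e-14 (exact binomial test, TMM) to 1.0 (edgeR).

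The ratio of Mir107 was 0.06 (-0.01 to 0.12) and that of Mir103-2 was -0.16 (-0.45 to 0.13), with adjusted p of 0.236 and 0.492 in the exact binomial test. Mir26a-2 was at 0.06 (-0.45 to 0.57), Mir26a-1 at 0.17 (-0.82 to 1.17) and Mir103-1 at 0.20 (-0.92 to 1.36), with adjusted p of 0.964, 0.908 and 0.888 in the exact binomial test. The intervals of these 5 genes include 0, and for Mir26a-1 and Mir103-1 they also include a 2-fold difference in at least 1 direction. Over the 398 genes, the median size of the log2 ratio was 0.18.

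**Figure D3:**
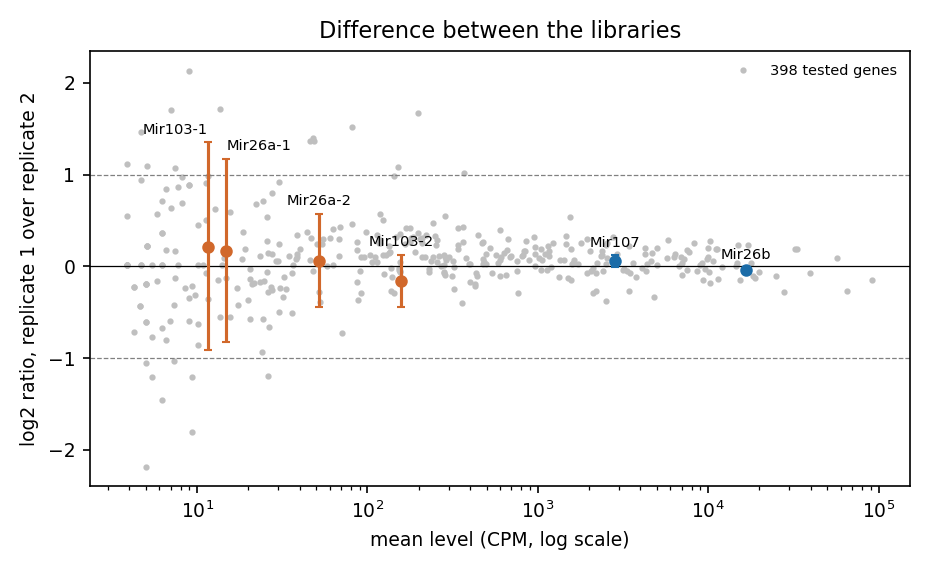
Log2 ratio of replicate 1 over replicate 2 (y axis) against the mean level (x axis, CPM, log scale) for the 398 tested genes (grey) and the 6 genes, unique in blue and copies in orange, with exact 95% intervals as bars. The 6 points lie between the dashed lines that mark 2-fold differences, and the bars lengthen from Mir26b to Mir103-1.

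Over the whole tables, genes with and without an identical copy were set side by side as 2 classes, which is not the comparison within a family made above. Of the 916 gene rows with a mature sequence of their own in RefSeq, which held 97.0% of the counts, 812 had no identical mature copy in another hairpin and 104 had one. Among the genes without a copy, 324 or 39.9% reached 2 CPM in both libraries, with a median of 1.16 CPM, and among those with a copy 52 of 104 did, with a median of 3.11 CPM. The genes with a copy thus reached the limit in a larger share, but they held 2.95% of all counts, against 94.1% for those without. The share without a copy minus the share with one was -10.1 percentage points. It stayed negative, at -13.1, when at most 1 mismatch counted as a copy among the same rows. The sign reversed in 2 settings that also took in more rows. With hairpins sharing 20 bases it was 24.3, over 965 genes without and 929 with a copy. With genes without a RefSeq record it was 24.1, over 812 without and 330 with a copy. A row could be added there only through a mature strand of another gene, so all added rows fell in the class with a copy.

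**Figure D4:**
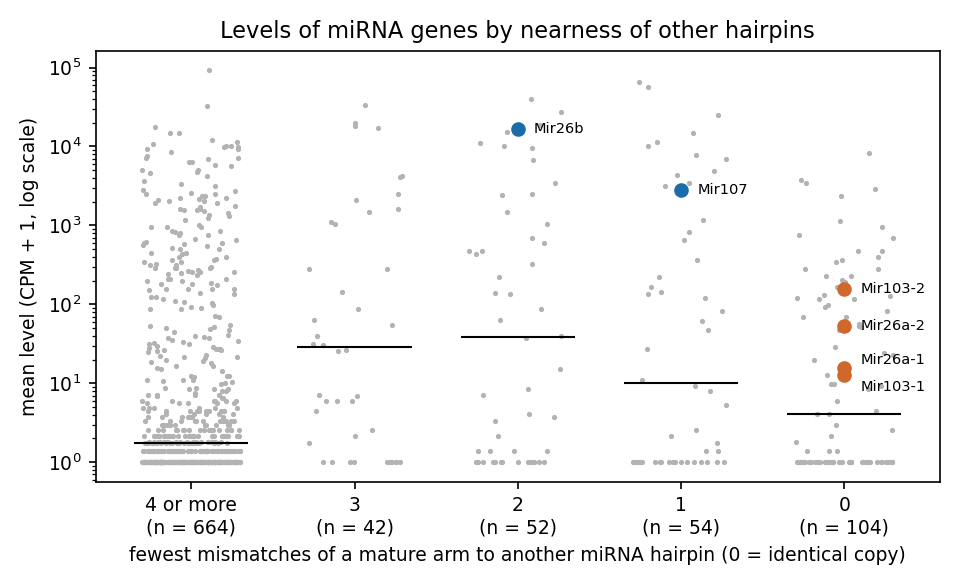
Mean level of each miRNA gene (y axis, CPM plus 1, log scale) by the fewest mismatches between one of its mature strands and any other miRNA hairpin (x axis, 0 being an identical copy), with medians as black lines. Mir26b (2 mismatches) and Mir107 (1 mismatch) in blue stand high in their classes, whose medians are 37.2 and 9.11 CPM, and the copies in orange stand above the median of 3.11 CPM of theirs. In the class of the copies, 44 of 104 genes were at 0 in both libraries.

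The 4 copies ranked in the upper part of the genes with an identical copy, of which 44 were at 0 in both libraries. The 52 genes of this class that reached 2 CPM in both libraries had a median of 115 CPM. Of the 4 copies, only Mir103-2 lay above that median. Mir103-2 ranked 22nd, Mir26a-2 34th, Mir26a-1 42nd and Mir103-1 45th of the 104 genes with an identical copy. The 3 highest of these were Mir92-1 of the Mir17 to Mir92 cluster at 8202 ± 1030.4 CPM, Mir181b-2 at 3781 ± 220.4 CPM and Mir16-1 at 3418 ± 371 CPM. By summed level the Mir103 pair was 15th with 169 ± 11.1 CPM and the Mir26a pair 17th with 66.7 ± 2.80 CPM among 36 groups of genes that share a mature strand. The 5 groups with the highest sums were the pairs of Mir92 (9146 ± 1178 CPM), Mir16 (4178 ± 392), Mir181b (3832 ± 228), Mir181a (3405 ± 257) and Mir125b (3054 ± 220.0). These sums likewise cover only reads placed at 1 gene.

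Genes within 1 or 2 mismatches of such a group were set beside its sum in 15 pairs, chosen after values were seen and given as a description without a filter on level. With 1 CPM added to each side, Mir26b had the highest log2 ratio over its group at 7.94, Mirlet7g the next at 6.02 over the group of Mirlet7a and Mirlet7c genes, and Mir107 was at rank 3 with 4.06. Relatives below their group were Mir195a at -3.13 beside the Mir16 pair and Mirlet7b at -1.10 beside the group of Mirlet7a and Mirlet7c genes. In 2 pairs, those beside Mir344, the group was at 0 in both libraries, so no ratio is given for them.

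Among the 665 genes in a sense intron of a protein-coding gene, the unique Mir26b ranked 6th and Mir107 26th, and the copies Mir103-2 65th, Mir26a-2 88th, Mir26a-1 112th and Mir103-1 117th. In this class 168 genes or 25.3% reached 2 CPM in both libraries, as did all 6 genes here, against 21.5% of all rows. The 3 highest intronic genes were Mir335 in the imprinted gene Mest at 92176 ± 6810 CPM, Mir99b in Spaca6 at 33339 ± 3117 CPM and Mir30e in Nfyc, which encodes a subunit of the transcription factor NF-Y, at 25025 ± 1327 CPM.

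The genes next above and next below each of the 6 in mean CPM are those most like them in level over the 2 libraries. Mir26b stood between Mir92b (17079 ± 1908 CPM) and Mir18 (15364 ± 1125 CPM), and Mir107 between Mir181a-1 (2935 ± 199 CPM) and Mir154 (2815 ± 31.4 CPM). Mir103-2 stood between Mir27a (166 ± 19.6 CPM) and Mir338 (156 ± 3.60 CPM), and Mir26a-2 between Mir293 (52.3 ± 9.95 CPM) and Mir181b-1 (51.9 ± 7.21 CPM). Mir26a-1 stood between Mir7655 (15.5 ± 4.25 CPM) and Mir448 (14.7 ± 0.964 CPM), and Mir103-1 between Mir218-1 (11.7 ± 5.59 CPM) and Gm23388 (11.6 ± 2.09 CPM). Of these 12 neighbours, 11 overlapped their gene over the 2 libraries, and the exception was Mir18 below Mir26b. Since neighbours were taken by nearness in mean, this count is no result about the 6 genes. Its share over all genes was not computed.

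The seed of the miR-15/16 family, AGCAGCA, equals bases 1 to 7 of miR-103-3p and miR-107-3p. Mir322 had 17764 ± 328 CPM, Mir15a 9246 ± 184 CPM and Mir15b 4696 ± 335 CPM, all above Mir107. Mir16-1 (3418 ± 371 CPM) was also above Mir107, and Mir16-2 (759 ± 21.1 CPM) and Mir195a (477 ± 5.94 CPM) were below it and above both Mir103 genes. The Mir103 and Mir16 genes have an identical copy, and their counts leave out reads that fit both copies. This order is therefore one of gene counts and not of mature strands. Mir497 had no row under that symbol. The seed of miR-26a-5p and miR-26b-5p was found in no other mature strand of the RefSeq table.

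The tissue label was checked against miRNA genes known from neural and other cells. Of 13 neural genes with a row, 12 reached 2 CPM in both libraries, with summed levels of 41515 CPM in replicate 1 and 35712 CPM in replicate 2. Mir92b (17079 CPM) and Mir149 (14979 CPM) were the highest of them by mean, followed by Mir137 (2536 CPM). No Mir9, Mir124a or Mir128 gene with a row was above the 479 CPM of Mir9-3. Endothelial Mir126a was at 34601 and 30323 CPM, 3 erythroid genes summed to 606 and 371 CPM, and 3 leukocyte genes to 759 and 761 CPM. Of 6 striated muscle genes 3 were at 0 in both libraries, with sums of 238 and 120.2 CPM, and liver Mir122 was at 21.1 and 6.17 CPM. All these counts cover only reads placed at 1 gene, so a count of 0 does not show that a miRNA was absent. Genes known from vessels and blood were thus counted in both pools, and their part in the levels of the 6 genes was not tested.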

How the data were processed

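Each of the 2 libraries has 1 deposited table of raw read counts per miRNA gene, in whole numbers, for both strands together, the strand of the gene and the opposite strand. The build was mm10 and the annotation GENCODE M4, per the labels and the accompanying text files. Which aligner and counter made the tables is not given in the sources read. The first 4 rows, which name no gene (unmapped, multimapping, no feature, ambiguous), were kept out of totals and tests. Multimapping reads were 41.69% of mapped reads in replicate 1 and 39.11% in replicate 2.

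CPM were computed here from the sense counts. At these depths 3 counts are 2.34 CPM in replicate 1 and 2.31 CPM in replicate 2. Of 1973 rows, 1894 were placed through GENCODE M21, the rest having no position there. Mature strands came from RefSeq (GRCm38.p6) and were compared with all miRNA hairpins on both strands. The RefSeq table is not complete. Ratios within a library had 0.5 counts added, with Clopper-Pearson intervals. The libraries were compared by a two-sided exact binomial test against library totals for genes with 10 counts or more in total, with Benjamini-Hochberg adjustment. It was tried on simulated data with counting error only. That trial does not show how the adjusted p behaves where libraries spread beyond counting error. R 4.3.3 with edgeR 4.0.16 and DESeq2 1.42.0, and Python 3.11.15 with scipy 1.17.1, were used. Alternatives covered scaling, the strand column, filters, the pseudocount, the test, the meaning of a copy and each library left out.

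The text names the 6 genes and their hosts, the genes next to each in mean CPM, the 3 highest genes with an identical copy and in a sense intron, the relatives with the miR-15/16 seed, and the 5 highest groups that share a mature strand. Mir195 was matched as Mir195a. Mirlet7b, Mirlet7g, Mir344, and Mir195a beside the Mir16 pair, were named after their values were seen. The genes and lists were chosen with earlier results of these data known.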

Additional observations from a re-analysis of the deposited data

How the results depend on the processing

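The ratios within each family and that of unique genes over copies kept their direction under every alternative run, and moved by more than the spread between libraries in 1 case, to 2.45 with Mir107 among the copies. The strand column could not move these ratios, since the 6 genes had 0 counts on the opposite strand. No alternative took in multimapping reads, so this says nothing of reads left out of the gene counts. The share of genes at 2 CPM without a copy minus that with one, -10.1 percentage points, ran from -8.47 to -6.75 with 1 library left out. It was 24.3 with hairpins sharing 20 bases, 24.1 with genes without a RefSeq record taken in and -13.1 with at most 1 mismatch counted as a copy. The last 2 were chosen after seeing the data. The setting at 24.3 changed the rows as well as the definition, and their parts were not told apart. The setting at 24.1 could add rows only to the class with a copy, so it is no test of the order. The number of genes called between the libraries, 11, was 113 without the 2-fold minimum and 6 with edgeR's exact test, which gave 21 genes at an unadjusted p under 0.05. With TMM sizes and with edgeR, Mir107 turned to -0.016 and -0.011 and Mir26a-2 to -0.010 and -0.0057 on the log2 scale, none of them past the threshold. Levels fell to 0.48 times with all mapped reads as the denominator and were 1.70 times as high without the 10 most abundant genes, for all 6 genes alike. No paired analysis was possible because there is 1 group. Counts of 14 to 20 for Mir26a-1 and Mir103-1 limit what can be said of their order.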
